A study of Mus musculus with 3 samples.

Results

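The genes described here are 8 transcription factors that pattern the lung mesenchyme: the T-box factors *Tbx2*, *Tbx3*, *Tbx4*, and *Tbx5*, the forkhead factors *Foxf1* and *Foxf2*, the basic helix-loop-helix factor *Tcf21*, and the homeobox factor *Meox2*. They were chosen by symbol, and all 8 were present among the 28692 genes listed for each library. Their name as mesenchymal factors fits 6 of them by where most of their transcripts were counted, though *Tbx2* was also high in *Car4*-type capillary cells. For *Tbx3* and *Foxf1*, endothelial cells (EC) held more transcripts than stromal cells, and these 2 genes are therefore described in both compartments.

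T-box proteins bind DNA through a shared T-box domain, and in the embryo *Tbx4* and *Tbx5* act in the mesenchyme around the lung bud, where they are needed for *Fgf10* expression and branching. *Tbx2* and *Tbx3* are mostly repressors, known for holding down cell cycle inhibitors in that mesenchyme. *Foxf1* is a target of hedgehog signaling from the epithelium, and its loss disturbs the pulmonary capillaries. *Foxf2* is its closest relative and is best known in gut mesenchyme and in pericytes of the brain. *Tcf21* (also called Pod1) is needed in the mesenchyme of lung and kidney and marks fibroblasts that store lipid, and *Meox2* is a factor of the somites, of muscle precursors, and of vascular cells.

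The data are single-cell RNA-Seq counts from whole lungs of 3 wild-type C57BL/6 mice (mice 2, 3, and 4) at P14, which stayed in room air (RA) from day 1 to day 14 of life. All 3 belong to the same group, so cell types were compared and no treatment was. Each library was made with the 10x 3′ kit (version 3), which counts unique molecular identifiers (UMIs), tags that mark a captured transcript before amplification. The mice are the replicates, and each gave 1 library. The p values rest on the spread between the 3 mice within each cell type, pooled over the types compared. The types of 1 mouse entered as separate values, without a term for the animal.

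The deposited libraries held 22476491 to 25192427 UMIs. Of 9644 deposited droplets, 7642 had 200 or more genes and no more than 20% of their UMIs from mitochondrial genes and were kept, with a median of 4853 to 7119 UMIs per cell in the 3 mice, whereas the study's design counts 5677 cells. Pairs of libraries shared 2 to 5 cell barcodes, and a chi-square comparison of their gene totals gave 8.68 to 36.0 per degree of freedom, far from the value of copies. A score from simulated doublets (droplets with more than 1 cell) marked 173 of the 7642 cells, which were kept. Clusters were called X-like from marker lists, and "like" is left out below. They gave 1540 stromal cells, 909 EC, 1313 epithelial cells, and 3024 immune cells, and the labelled tissue was recognizable by 1051 alveolar type 2 (AT2) and 166 alveolar type 1 (AT1) cells.

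Stromal cells were divided into 91 pericytes, 252 *Pdgfra*-positive fibroblasts with *Agt* and *Stc1* (*Agt*/*Stc1* fibroblasts), 355 myofibroblasts led by *Tnc* and *Wnt5a*, 164 *Col13a1*-type fibroblasts, 73 *Col14a1*-type fibroblasts, 163 smooth muscle cells, and 18 chondrocytes. EC were divided into 97 *Car4*-type capillary cells, 461 *Aplnr*-type capillary cells, 153 arterial cells, 108 venous cells, and 15 lymphatic cells. Stromal clusters of 196, 127, 57, and 44 cells and an endothelial cluster of 75 cells took no type name and are described further below. The one of 196 cells scored 2.84 on the myofibroblast list, against 2.76 for the named myofibroblasts, whose levels and tests leave it out. Chondrocytes and lymphatic cells were too few per mouse for a test. Clustering did not use the 8 factors, but it used genes that vary with them, and *Tcf21* still came out among the 10 leading genes of the *Col13a1*-type cluster. Levels below are CPM, the usual unit in which the UMIs of a gene are scaled to a common total, here over all UMIs of a type in a mouse. They are compared between cell types and not between genes.

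In the genome (GRCm38, GENCODE M21 annotation), the T-box genes lie in 2 pairs. *Tbx2* (ENSMUSG00000000093, chr11:85832551-85841948) and *Tbx4* (ENSMUSG00000000094, chr11:85886422-85916097) are 44473 bases apart on the plus strand. *Tbx3* (ENSMUSG00000018604, chr5:119670669-119684724) and *Tbx5* (ENSMUSG00000018263, chr5:119832668-119885219) are 147943 bases apart, also on the plus strand. *Foxf1* (ENSMUSG00000042812, chr8:121084386-121088144, plus strand) starts 1275 bases from the long noncoding RNA gene *Fendrr*, which is read from the opposite strand. The unpaired genes are *Foxf2* (ENSMUSG00000038402, chr13:31625816-31631403), *Tcf21* (ENSMUSG00000045680, chr10:22817281-22820174, minus strand), and *Meox2* (ENSMUSG00000036144, chr12:37108540-37179534). The antisense gene *Tbx3os1* overlaps *Tbx3* and had 512 UMIs in stromal cells and 303 in EC, against 1461 and 4058 for *Tbx3*. How the counting treated reads of the overlap is not given in the sources used here. *Foxf1* lies within the predicted gene Gm20388, which had 0 UMIs in both classes.

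Promoter sequences of RefSeq (GRCm38.p6, 250 bases before to 50 bases after a start site) were at hand for 4 of the 8 genes. They are shown to set the start regions of *Tbx4* and *Foxf2*, which had the most similar levels across cell types, beside those of *Tcf21* and *Meox2*, which among the named cell types were highest in *Col13a1*-type fibroblasts. The windows are chr11:85896515-85896814 (*Tbx4*, plus strand), chr13:31625566-31625865 (*Foxf2*, plus strand), chr10:22820094-22820393 (*Tcf21*, minus strand), and chr12:37108290-37108589 (*Meox2*, plus strand), and that of *Tbx4* lies inside the annotated gene, at a start site downstream of its first base. Capitals mark CAGCTG, an E-box of the kind bound by basic helix-loop-helix factors such as *Tcf21*, which is its own reverse complement.
Tbx4: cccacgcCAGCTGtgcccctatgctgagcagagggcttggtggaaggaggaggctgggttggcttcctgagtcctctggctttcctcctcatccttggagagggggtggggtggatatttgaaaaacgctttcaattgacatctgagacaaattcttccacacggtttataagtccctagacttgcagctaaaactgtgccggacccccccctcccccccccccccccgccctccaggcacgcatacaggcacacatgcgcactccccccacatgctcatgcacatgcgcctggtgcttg
Foxf2: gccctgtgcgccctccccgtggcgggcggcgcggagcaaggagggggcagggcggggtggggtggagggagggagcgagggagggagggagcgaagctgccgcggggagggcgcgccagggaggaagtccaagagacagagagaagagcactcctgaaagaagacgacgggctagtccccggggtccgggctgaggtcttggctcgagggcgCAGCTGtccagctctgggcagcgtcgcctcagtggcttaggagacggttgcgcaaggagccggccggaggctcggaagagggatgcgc
Tcf21: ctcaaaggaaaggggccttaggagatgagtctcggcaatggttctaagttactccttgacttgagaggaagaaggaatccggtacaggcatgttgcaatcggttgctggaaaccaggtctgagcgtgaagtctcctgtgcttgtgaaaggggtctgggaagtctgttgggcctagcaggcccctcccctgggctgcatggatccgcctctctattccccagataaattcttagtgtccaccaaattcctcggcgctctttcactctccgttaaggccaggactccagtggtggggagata
Meox2: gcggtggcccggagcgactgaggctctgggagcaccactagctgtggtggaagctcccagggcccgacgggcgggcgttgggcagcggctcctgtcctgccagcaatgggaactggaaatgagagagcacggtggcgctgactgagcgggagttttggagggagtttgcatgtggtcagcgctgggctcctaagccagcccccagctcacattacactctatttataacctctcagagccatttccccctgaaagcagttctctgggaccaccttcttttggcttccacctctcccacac
The E-box occurred in 2 of these 4 windows, those of *Tbx4* and *Foxf2*, and in 16.3% of all 32851 promoters of the same length. A T-box motif (GGTGTGA) and a forkhead motif (TGTTTAC), searched on both strands, were in none of the 4 and in 3.98% and 3.65% of all promoters. These matches describe the letters of the windows and say nothing about binding.

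The 8 factors were counted mainly in stromal cells or EC and were close to absent in epithelial and immune cells. *Tbx4*, *Tbx5*, *Foxf2*, *Tcf21*, and *Meox2* were low in EC too, at means of 10.8, 9.32, 6.03, 6.01, and 8.80 CPM. Stromal cells held 96.5% of the *Tbx4* UMIs of all kept cells, 96.0% of those of *Foxf2*, 95.8% of those of *Tbx5*, 94.8% of those of *Tcf21*, 88.1% of those of *Meox2*, and 82.9% of those of *Tbx2*. EC held 66.3% of the *Tbx3* UMIs and 65.8% of the *Foxf1* UMIs, with 23.9% and 24.4% in stromal cells. A cluster of 136 dividing cells, which was counted in neither class, held 4.70% of the *Foxf1* UMIs (292, 163, and 194 CPM in mice 2, 3, and 4) and 3.97% of the *Tbx3* UMIs (181, 79.9, and 165 CPM). In it the 6 endothelial markers summed to 2785 CPM and the 5 immune markers to 1406 CPM over the mice, and their part in these levels was not tested. Totals in kept cells ranged from 958 UMIs for *Meox2* to 11530 for *Tbx2*. In epithelial and immune cells no factor exceeded a mean of 4.29 CPM over the 3 mice. In B cells, which should lack these genes and had a median of 3960 UMIs per cell, 0.122% (*Meox2*) to 1.40% (*Tbx2*) of the cells had a UMI, and shares in other types are read against this background. The share of cells without a UMI of any of the 8 was 1.88% in stromal cells, 5.61% in EC and 91.2% in epithelial cells, and 2873 of 3024 immune cells had none.

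**Figure D1:**
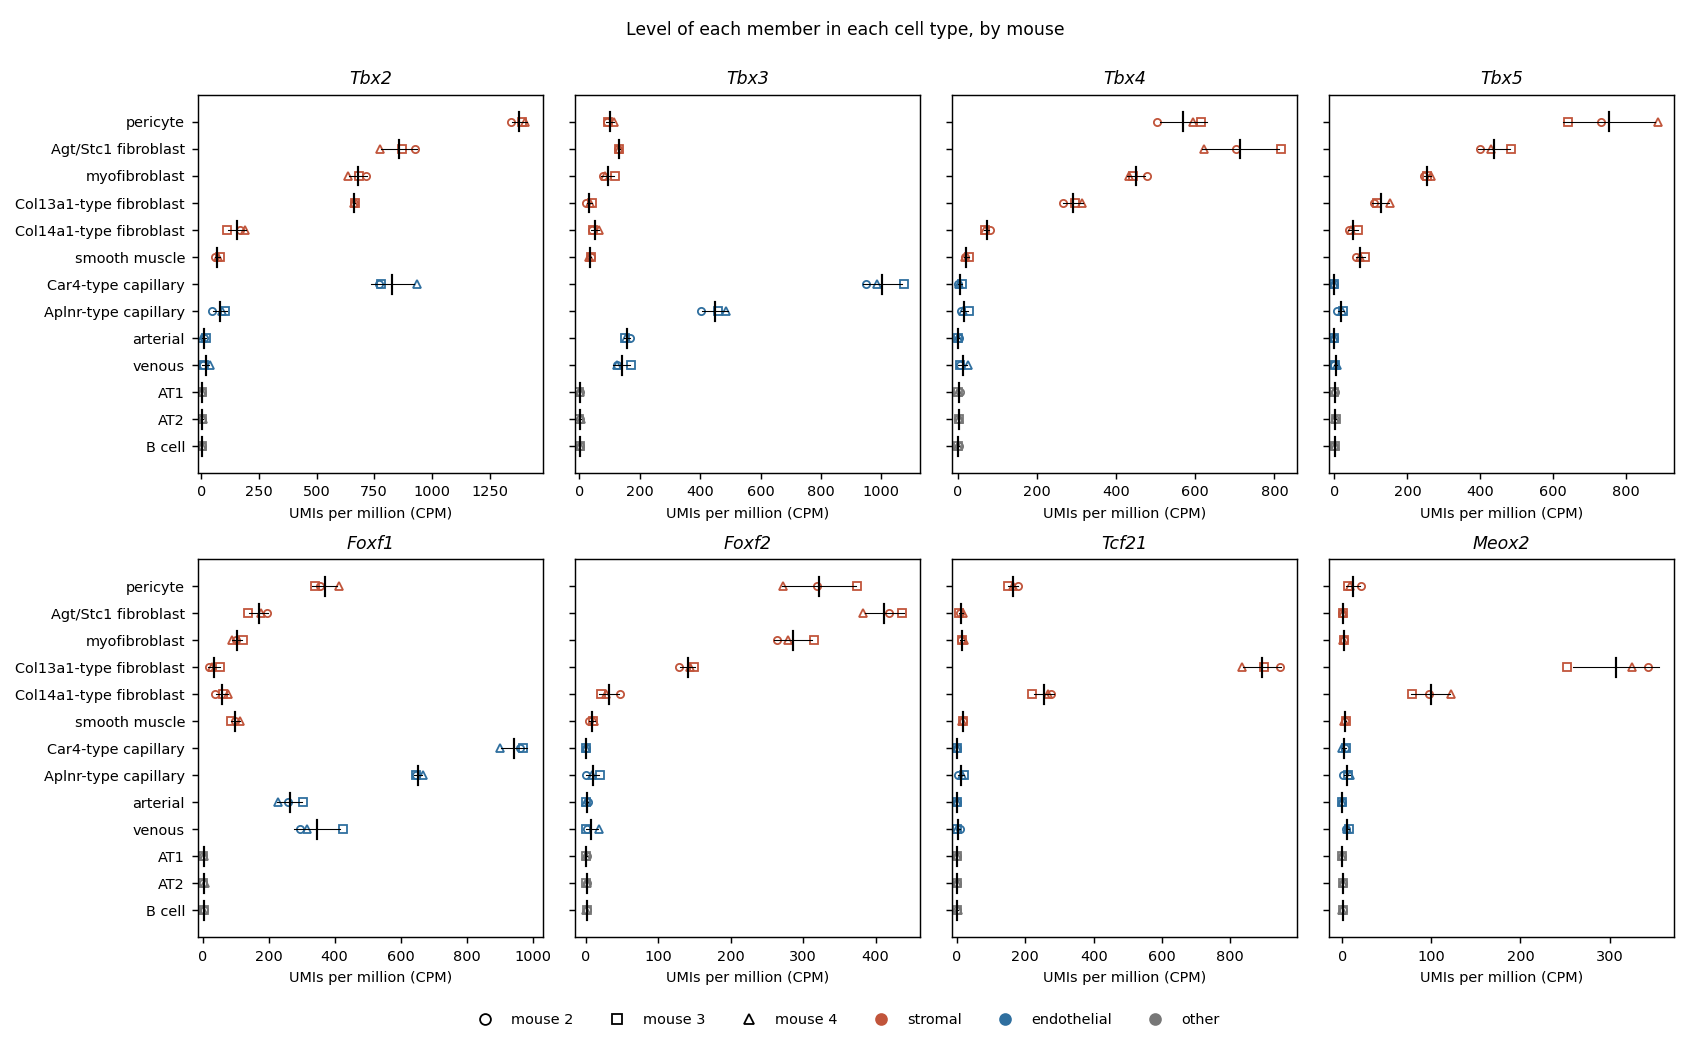
Level of each factor (CPM, horizontal axis) in 6 stromal types (red), 4 endothelial types (blue), and 3 other types (gray), with open symbols for the 3 mice, a vertical bar for their mean, and a thin line for the SD. *Tbx2*, *Tbx4*, *Tbx5*, and *Foxf2* were high in pericytes, *Agt*/*Stc1* fibroblasts, and myofibroblasts, and *Tbx2* also in *Car4*-type capillary cells (829 CPM). *Tbx3* and *Foxf1* were highest in *Car4*-type capillary cells (1003 and 944 CPM), and *Tcf21* and *Meox2* were highest in *Col13a1*-type fibroblasts (893 and 307 CPM).

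Stromal cells were compared with EC to ask which factors separate the compartments. Stromal cells had more *Tbx4* in every mouse, at 338, 333, and 350.2 CPM in the 3 mice, whereas EC had 5.94, 14.6, and 11.8 CPM in the same order. *Foxf1* was distributed the other way, at 119, 102, and 121 CPM in stromal cells against 557, 591, and 566 CPM in EC. Neither gene overlapped between the compartments.

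The same contrast was tested over 14211 genes with edgeR's quasi-likelihood test and Benjamini-Hochberg adjustment. It called 6 of the 8 factors higher and 2 lower in stromal cells, where 31.2% of all genes were called higher and 24.6% lower. The log2 fold changes of the 6 were 5.13 ± 0.16 (SE) for *Tbx4* (adjusted p = 1.39e-12), 5.11 ± 0.19 for *Foxf2* (adjusted p = 1.04e-11), 4.86 ± 0.27 for *Tcf21*, 4.78 ± 0.23 for *Tbx5*, 2.64 ± 0.25 for *Meox2*, and 1.81 ± 0.12 for *Tbx2*. *Tbx3* was 4.75-fold lower (log2 fold change −2.25 ± 0.16, adjusted p = 1.23e-08 by edgeR) and *Foxf1* 4.62-fold lower (−2.21 ± 0.16, adjusted p = 1.70e-08 by edgeR). The median log2 fold change was 3.71 for the 8 factors and 0.06 for all genes. Stromal cells had all 8 factors at a higher level than epithelial cells (35.8% of genes higher, 31.4% lower) and than immune cells (38.9% higher, 37.4% lower). Log2 fold changes ran from 4.70 ± 0.26 for *Tbx3* against epithelial cells to 8.68 ± 0.35 for *Tbx5* against immune cells. The last value rests on only 7 *Tbx5* UMIs in all immune cells.

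**Figure D2:**
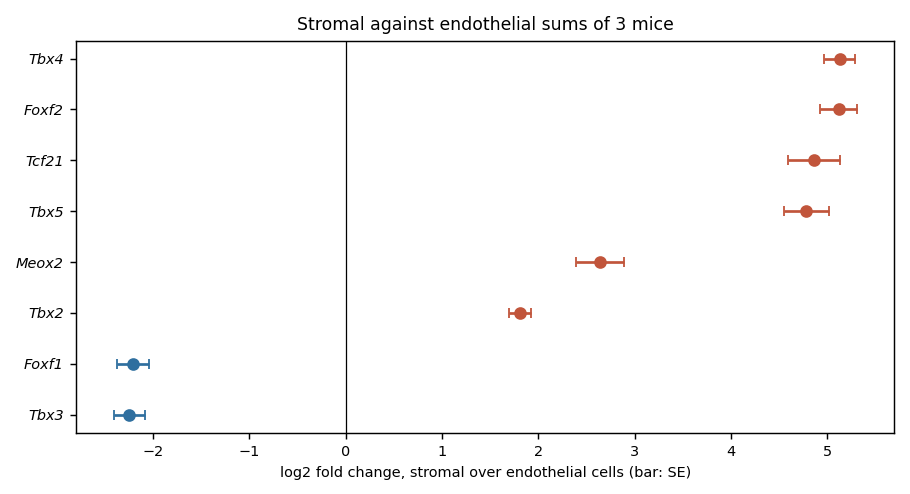
Log2 fold change of each factor in stromal cells over EC (horizontal axis), from edgeR on sums of UMIs per mouse, with bars for the SE. *Tbx3* and *Foxf1* lie left of 0 (−2.25 and −2.21), and the other 6 lie right of it, from 1.81 to 5.13.

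Part of the stromal-type factors in EC came from 10 cells. These formed an *Aplnr*-type sub-cluster (2, 3, and 5 cells in the 3 mice) with a median of 36092.5 UMIs, against 7859 in the other *Aplnr*-type cells, and 7 of the 10 were marked as doublets. All 6 stromal markers (*Col1a1*, *Col1a2*, *Col3a1*, *Col6a1*, *Pdgfrb*, and *Fstl1*) had UMIs in them, at a summed level of 4242 CPM against 348 CPM in the other *Aplnr*-type cells. They held 61 of the 75 *Tbx4* UMIs of *Aplnr*-type cells, 74 of 83 for *Tbx5*, 37 of 41 for *Foxf2*, and 42 of 52 for *Tcf21*, and each of these cells had UMIs of at least 5 of the 8 factors. Without them, the stromal over endothelial log2 fold changes were 6.41 for *Tbx4*, 7.26 for *Tbx5*, 6.59 for *Foxf2*, and 6.77 for *Tcf21*, and those of *Tbx3* (−2.25) and *Foxf1* (−2.23) kept their size. EC had more of all 8 factors than epithelial cells by edgeR (33.6% of genes higher, 32.6% lower). The same held against immune cells (34.0% higher, 35.3% lower). Without the 10 cells, only 5 of the 8 were called in each contrast, and *Tbx5*, *Foxf2*, and *Tcf21* were not. In that setting 9368 (against epithelial cells) and 9693 (against immune cells) of 14201 genes were called. *Meox2* was still called, and 43 of its 79 UMIs in all EC came from 15 lymphatic cells.

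*Tbx2*, a repressor of the T-box family, was highest in pericytes, at 1343, 1391, and 1405 CPM in mice 2, 3, and 4 (1379.6 ± 32.1, mean ± SD). *Agt*/*Stc1* fibroblasts had 926, 871, and 774 CPM, and *Car4*-type capillary cells had 772, 779.9, and 935 CPM. Pericytes stood above both in every mouse, and the latter types overlapped. Myofibroblasts (679 ± 39.2 CPM) and *Col13a1*-type fibroblasts (664 ± 3.05 CPM) also overlapped, and *Col14a1*-type fibroblasts were lower, at 166, 113, and 188 CPM. *Aplnr*-type capillary cells (45.1, 105, and 91.5 CPM) overlapped with smooth muscle cells (60.3, 80.0, and 70.8 CPM), and 175 of their 389 *Tbx2* UMIs came from the 10 cells described above. Venous (20.4 ± 15.5 CPM) and arterial cells (12.7 ± 9.65 CPM) were at the lower end. All 91 pericytes and all 252 *Agt*/*Stc1* fibroblasts had a *Tbx2* UMI, and so did 97.8% ± 1.94% of the *Car4*-type but 26.4% ± 3.14% of the *Aplnr*-type capillary cells. When cells were thinned to 2000 UMIs, these shares were 93.5%, 80.7%, 80.6%, and 7.94%. Cells with fewer UMIs than that were left out, here and in the thinned shares below.

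*Tbx3*, the other repressor, had its highest level in EC. *Car4*-type capillary cells had 948, 1075, and 986 CPM (1003 ± 65.1) and *Aplnr*-type cells 402, 458, and 486 CPM (449 ± 42.4), without overlap. Arterial cells (158 ± 9.56 CPM), venous cells (140.0 ± 27.8 CPM), and *Agt*/*Stc1* fibroblasts (130.5 ± 2.85 CPM) followed, and neighbors in this order overlapped. Pericytes (101 CPM) and myofibroblasts (93.6 CPM) overlapped as well, and *Col13a1*-type fibroblasts had 32.5 CPM. Every *Car4*-type cell and 89.5% ± 2.36% of the *Aplnr*-type cells had a *Tbx3* UMI, or 86.7% and 54.5% after thinning to 2000 UMIs.

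*Tbx4*, which acts in the mesenchyme during lung branching, gave the clearest order of stromal types. *Agt*/*Stc1* fibroblasts had 702, 817, and 623 CPM, pericytes 502, 614, and 595 CPM, and myofibroblasts 477, 444, and 433 CPM. *Col13a1*-type fibroblasts had 265, 295, and 315 CPM, *Col14a1*-type fibroblasts 73.4 ± 6.41 CPM, and smooth muscle cells 21.7 ± 6.11 CPM. No 2 neighbors among these 6 types overlapped. In *Car4*-type cells 5 *Tbx4*-positive cells of 97 were found.

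*Tbx5*, which acts beside *Tbx4* in the lung mesenchyme, had its highest level in pericytes, at 730.3, 641, and 888 CPM. *Agt*/*Stc1* fibroblasts had 399, 485, and 431 CPM, myofibroblasts 245, 253, and 265 CPM, and *Col13a1*-type fibroblasts 126 ± 23.4 CPM, each without overlap with the next. Smooth muscle (71.0 CPM) and *Col14a1*-type fibroblasts (50.3 CPM) overlapped. No *Tbx5* UMI was counted in 97 *Car4*-type or 153 arterial cells, where 3 UMIs would be 2.42 and 1.96 CPM.

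*Foxf1*, the forkhead factor linked to the lung capillaries, was highest in *Car4*-type capillary cells, at 961, 972, and 900.2 CPM. *Aplnr*-type cells had 646, 647, and 667 CPM (653 ± 11.9), lower in each mouse. Pericytes had 355, 341, and 413 CPM, the highest of the stromal types, and overlapped with venous cells (295, 425, and 316 CPM), which overlapped with arterial cells (259, 305, and 228 CPM). *Agt*/*Stc1* fibroblasts (169.6 ± 29.7 CPM) were below these, myofibroblasts (104 CPM) and smooth muscle cells (98.9 CPM) overlapped, and *Col13a1*-type fibroblasts had 33.8 CPM. A *Foxf1* UMI was found in 99.0% ± 1.65% of the *Car4*-type cells and in 86.9% ± 3.07% of the pericytes, or 85.2% and 49.9% after thinning to 2000 UMIs.

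The neighboring RNA gene *Fendrr*, which is known from mesoderm of the heart and lung, had the 4 blood endothelial types in the same order as *Foxf1*. It reached 963, 1053, and 1169 CPM in *Car4*-type cells, 859, 910.1, and 867 CPM in *Aplnr*-type cells, 357 ± 56.6 CPM in venous cells, and 272 ± 21.8 CPM in arterial cells. Pericytes varied more between mice, at 255, 102, and 248 CPM, and *Agt*/*Stc1* fibroblasts had 199 ± 13.5 CPM. By edgeR, stromal cells had 5.59-fold less *Fendrr* than EC (log2 fold change −2.48 ± 0.15, adjusted p = 1.58e-09).

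*Foxf2*, unlike *Foxf1*, was a gene of the stroma. *Agt*/*Stc1* fibroblasts had 418, 436, and 382 CPM, pericytes 319, 375, and 273 CPM, and myofibroblasts 264, 316, and 279 CPM. The first type stood above the other two, which overlapped. *Col13a1*-type fibroblasts had 141 ± 10.2 CPM and smooth muscle cells 8.84 CPM. A *Foxf2* UMI was present in 96.9% ± 1.49% of the *Agt*/*Stc1* fibroblasts, and in none of 97 *Car4*-type cells.

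*Tcf21*, a factor of lipid-storing and other resident fibroblasts, was highest in *Col13a1*-type fibroblasts, at 945, 899, and 834 CPM (893 ± 55.7). *Col14a1*-type fibroblasts had 276, 219.8, and 265 CPM, and pericytes 177, 150.0, and 165 CPM. The 3 types did not overlap, and all stood well above smooth muscle cells (17.3 CPM), myofibroblasts (14.8 CPM), and *Agt*/*Stc1* fibroblasts (11.3 CPM). The share of cells with a *Tcf21* UMI was 91.4% ± 3.78% in *Col13a1*-type fibroblasts, 88.9% ± 4.58% in *Col14a1*-type fibroblasts, and 66.6% ± 3.22% in pericytes. After thinning to 2000 UMIs these shares were 70.7%, 34.7%, and 28.4%.

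*Meox2* was found in the 2 matrix fibroblast types and, in a few cells, in lymphatic endothelium. *Col13a1*-type fibroblasts had 343, 252, and 325 CPM (307 ± 48.1) and *Col14a1*-type fibroblasts 97.4, 78.3, and 122 CPM (99.3 ± 21.9), without overlap. Pericytes had 21.0, 6.82, and 8.26 CPM, and no other named stromal or blood endothelial type exceeded a mean of 5.45 CPM. The 252 *Agt*/*Stc1* fibroblasts had 2 *Meox2* UMIs and the 355 myofibroblasts 5. The share of cells with a UMI was 0.794% in the former and 1.13% in the latter, and their counting intervals overlapped with that of B cells. Overlap does not show that the shares are equal. The depth also differed, with medians of 12117.5 and 10488 UMIs per cell against 3960 in B cells. Lymphatic cells, pooled over mice, had 43 *Meox2* UMIs, or 136 CPM (exact 95% Poisson interval, 98.5 to 183), in 11 of 15 cells (73.3%, exact 95% binomial interval 44.9% to 92.2%, both for counting error only). Of these 15 cells 4 were marked as doublets, and without those the share was 81.8%.

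Each stromal type was then tested against the mean of the other 5 in 1 edgeR fit over 10430 genes. That mean is taken on the log scale, so 1 type with a high level weighs less than in a mean of CPM. A factor can thus be called higher in a type that is well below another. *Tcf21* in pericytes (164 CPM, against 893 CPM in *Col13a1*-type fibroblasts) is such a case. The log2 fold changes of a factor over the 6 types cancel out by design, so its calls in different types are not independent. Pericytes had 7 of the 8 factors at a higher level and none at a lower level (15.4% of all genes higher, 14.2% lower). These were *Tbx5* (log2 fold change 2.36 ± 0.11), *Foxf1* (2.10 ± 0.16), *Tbx2* (1.95 ± 0.09), *Foxf2* (1.77 ± 0.14), *Tbx4* (1.61 ± 0.11), *Tcf21* (1.40 ± 0.17), and *Tbx3* (0.69 ± 0.19). *Meox2* did not pass (0.33 ± 0.41, adjusted p = 0.612 by edgeR). The call of *Tbx3* (adjusted p = 0.00692 by edgeR) was lost in 7 alternative settings, among them those without mouse 2 or mouse 4, where its log2 fold change was 0.43 to 0.69. Endothelial markers summed to 317 CPM in pericytes, the highest of the 6 stromal types, against 15039 CPM in *Car4*-type cells, and their part in the *Foxf1* and *Tbx3* levels was not tested.

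*Agt*/*Stc1* fibroblasts had 6 factors higher and 2 lower (12.7% and 9.53% of all genes). *Foxf2* (4.52-fold, log2 fold change 2.17 ± 0.10) and *Tbx4* (3.92-fold, 1.97 ± 0.09) led, followed by *Tbx5* (1.36 ± 0.10), *Tbx2* (1.08 ± 0.09), *Tbx3* (1.07 ± 0.12), and *Foxf1* (0.70 ± 0.14). *Tcf21* was 9.12-fold lower (−3.19 ± 0.20, adjusted p = 7.91e-14 by edgeR). *Meox2* was called lower too, but with 2 UMIs its fitted fold depends on the prior count of the fit and is not given, and the same holds in myofibroblasts. Myofibroblasts had 5 factors higher and 2 lower (13.4% and 9.53% of all genes), with *Foxf2* at 1.61 ± 0.11 and *Tbx4* at 1.25 ± 0.09, *Tcf21* at −2.71 ± 0.18, and *Foxf1* not called (−0.11 ± 0.14, adjusted p = 0.694 by edgeR). The calls of *Tbx5* (0.48 ± 0.10) and *Tbx3* (0.53 ± 0.12) in myofibroblasts were lost in 2 settings and without mouse 3, respectively.

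*Col13a1*-type fibroblasts had 5 factors higher and 3 lower (18.8% and 12.3% of all genes). *Tcf21* was 21.9-fold higher (log2 fold change 4.45 ± 0.10, adjusted p = 4.25e-25 by edgeR). *Meox2* had a fitted log2 fold change of 5.81 ± 0.16 (adjusted p = 1.78e-22 by edgeR), the size of which depends on the prior count because some of the other types had 2 to 5 UMIs. By contrast, *Tbx2* (0.83 ± 0.09), *Tbx4* (0.62 ± 0.10), and *Foxf2* (0.53 ± 0.13) were modestly higher, the last of them lost in 2 settings. *Foxf1* (−1.79 ± 0.20), *Tbx3* (−1.08 ± 0.17), and *Tbx5* (−0.60 ± 0.12) were lower. *Col14a1*-type fibroblasts had only *Tcf21* (5.18-fold, 2.37 ± 0.13) and *Meox2* (fitted 3.94 ± 0.25) higher and 5 factors lower (17.2% and 8.88% of all genes), with *Tbx5* at −2.05 ± 0.17 and *Tbx3* not called (−0.28 ± 0.20, adjusted p = 0.344 by edgeR). The call of *Foxf1* in these cells (−0.89 ± 0.22) was lost without mouse 2 (adjusted p = 0.0649 by edgeR).

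Smooth muscle cells had 7 factors lower and none higher (15.7% and 21.2% of all genes). *Foxf2* was 18.2-fold lower (log2 fold change −4.18 ± 0.20), *Tbx4* 14.0-fold (−3.81 ± 0.15), and *Tbx2* 8.03-fold (−3.01 ± 0.13). *Foxf1* was not called (−0.01 ± 0.17, adjusted p = 0.999999 by edgeR), and its sign changed with the setting. The call of *Tbx3* (−0.94 ± 0.16) was lost in 3 settings, where it was −0.38 to −0.23, and that of *Meox2* without mouse 4 (adjusted p = 0.0584 by edgeR). By mean level, smooth muscle was not the lowest stromal type for every factor called lower. It had 71.0 CPM of *Tbx5* (*Col14a1*-type fibroblasts 50.3) and 35.6 CPM of *Tbx3* (*Col13a1*-type fibroblasts 32.5). It also had 17.3 CPM of *Tcf21* and 3.23 CPM of *Meox2*, from 9 UMIs (*Agt*/*Stc1* fibroblasts 11.3 and 0.641 CPM). Scaling by library totals in place of TMM moved the share of higher calls among all genes from 57.1% to 75.5% in *Agt*/*Stc1* fibroblasts, from 58.4% to 68.5% in myofibroblasts, and from 65.9% to 47.5% in *Col14a1*-type fibroblasts, and the median log2 fold change of all genes by 0.14 and −0.16 in the first and last of these, without changing the sign of a factor that was called.

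**Figure D3:**
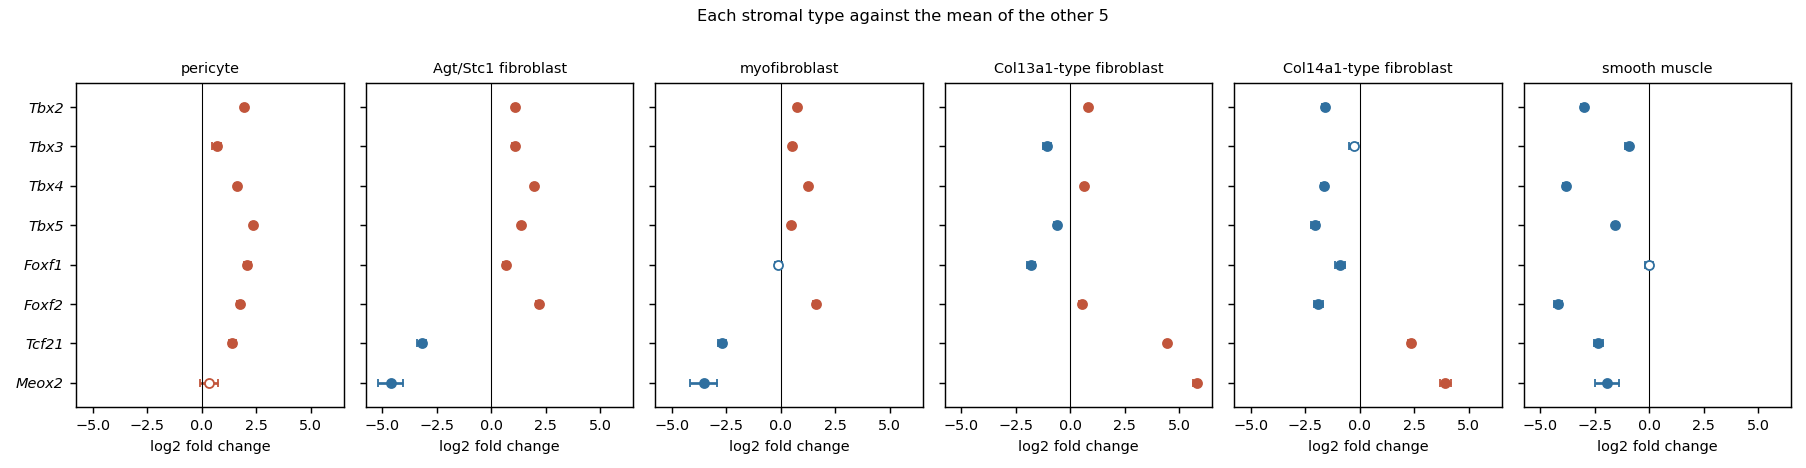
Log2 fold change (horizontal axis) of the 8 factors in each of 6 stromal types over the log-scale mean of the other 5, from edgeR. Bars are the SE, filled points are factors called, open points are those not called, and red or blue marks values above or below 0. Pericytes have 7 filled points right of 0, smooth muscle cells have 7 left of it, and *Tcf21* and *Meox2* reach 4.45 and 5.81 in *Col13a1*-type fibroblasts.

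Among the endothelial types, 3 of the 8 factors (*Tbx2*, *Tbx3*, and *Foxf1*) passed the filter on low counts of the fit over 7788 genes, and the other 5 did not enter it. *Car4*-type capillary cells had all 3 at a higher level than the log-scale mean of the other 3 types (13.1% of all genes higher, 13.1% lower). *Tbx2* was 29.3-fold higher (log2 fold change 4.87 ± 0.20, adjusted p = 7.95e-15 by edgeR), *Tbx3* 4.49-fold (2.17 ± 0.10), and *Foxf1* 2.33-fold (1.22 ± 0.10). *Aplnr*-type cells had *Tbx3* (0.59 ± 0.10) and *Foxf1* (0.49 ± 0.10) higher and none lower (9.32% and 7.87% of all genes). *Tbx2* was not called in them (0.33 ± 0.27, adjusted p = 0.492 by edgeR), and its log2 fold change was −0.40 without the 10 cells described above. Library totals in place of TMM moved the share of higher calls in *Aplnr*-type cells from 54.2% to 68.2%.

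Arterial and venous cells had less of all 3 factors. By design the log2 fold changes of a factor over the 4 types cancel out. The lower values here thus follow in part from the higher ones in capillary cells and are no separate result. In arterial cells (12.5% of all genes higher, 10.9% lower), *Tbx2* was at −3.07 ± 0.44, *Tbx3* at −1.27 ± 0.12, and *Foxf1* at −1.13 ± 0.12 on the log2 scale. In venous cells (12.3% higher, 9.36% lower), *Tbx2* was at −2.13 ± 0.43, *Tbx3* at −1.49 ± 0.13, and *Foxf1* at −0.58 ± 0.11. The call of *Tbx2* in venous cells was lost without mouse 3 (adjusted p = 0.0605 by edgeR). Stromal markers summed to 1502 CPM in arterial and 1754 CPM in venous cells, against 264 CPM in *Car4*-type cells. With no filter on low counts, 20 of 32 tests of a factor in an endothelial type passed in place of 11 of 12, many of them for genes with few UMIs. Of 16102 genes in that setting, 1692 to 2309 were called per endothelial type.

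**Figure D4:**
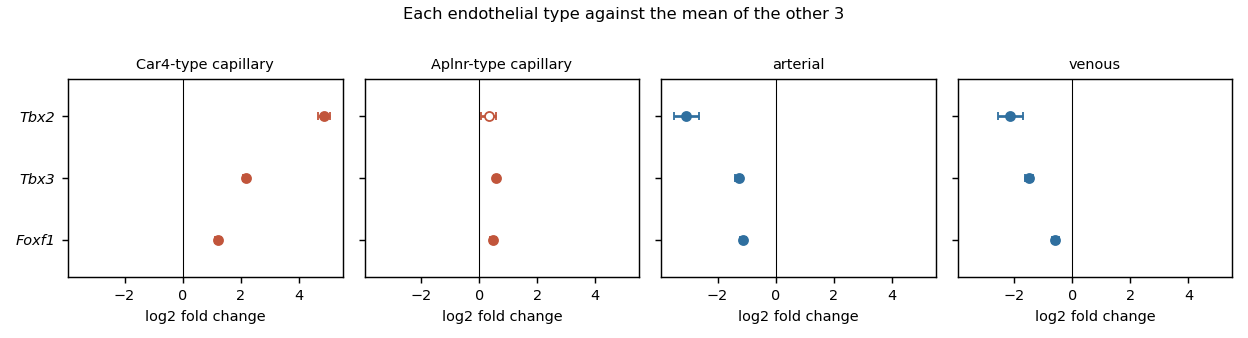
Log2 fold change (horizontal axis), from edgeR, of the 3 factors that passed the filter on low counts. Each of 4 endothelial types is set over the log-scale mean of the other 3, with bars for the SE and an open point where a factor was not called. All 3 lie right of 0 in *Car4*-type capillary cells (4.87, 2.17, and 1.22) and left of it in arterial and venous cells.

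Pairs of related factors were next counted in the same cells. *Tbx2* and *Tbx4*, which are neighbors in the genome, had UMIs together in 74.2% of the stromal cells and in 2.42% of the EC, and in 98.8% of the *Agt*/*Stc1* fibroblasts (249 of 252). *Tbx3* and *Tbx5* were found together in 40.7% of the stromal cells and 1.98% of the EC, and no *Car4*-type cell had both. The paralogs *Foxf1* and *Foxf2* were found together in 41.9% of the stromal cells and 1.76% of the EC. They shared 74.7% of the pericytes (exact 95% binomial interval 64.5% to 83.3%) and 76.2% of the *Agt*/*Stc1* fibroblasts. The products of their single shares were 73.5% and 75.7%. Single shares were high there (86.8% and 84.6%, 78.2% and 96.8%). The shared percent could thus differ little from the product, and no conclusion is drawn from their closeness. In *Col14a1*-type fibroblasts it was 19.2% (interval 10.9% to 30.1%), against a product of 11.6%. Among the 6 tested stromal types, only myofibroblasts were below their product (54.6% against 54.9%). In EC without marked doublets, the pairs fell to 1.58%, 1.13%, and 0.901% of the cells. In the 1436 of 1540 stromal cells that could be thinned to 2000 UMIs, the shares were 34.1%, 6.23%, and 7.43%. The median number of the 8 factors with a UMI was 6 in pericytes, *Agt*/*Stc1* fibroblasts, and *Col13a1*-type fibroblasts, 5 in myofibroblasts, 4 in *Col14a1*-type fibroblasts, 3 in smooth muscle and *Car4*-type cells, and 2 in the other blood EC.

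**Figure D5:**
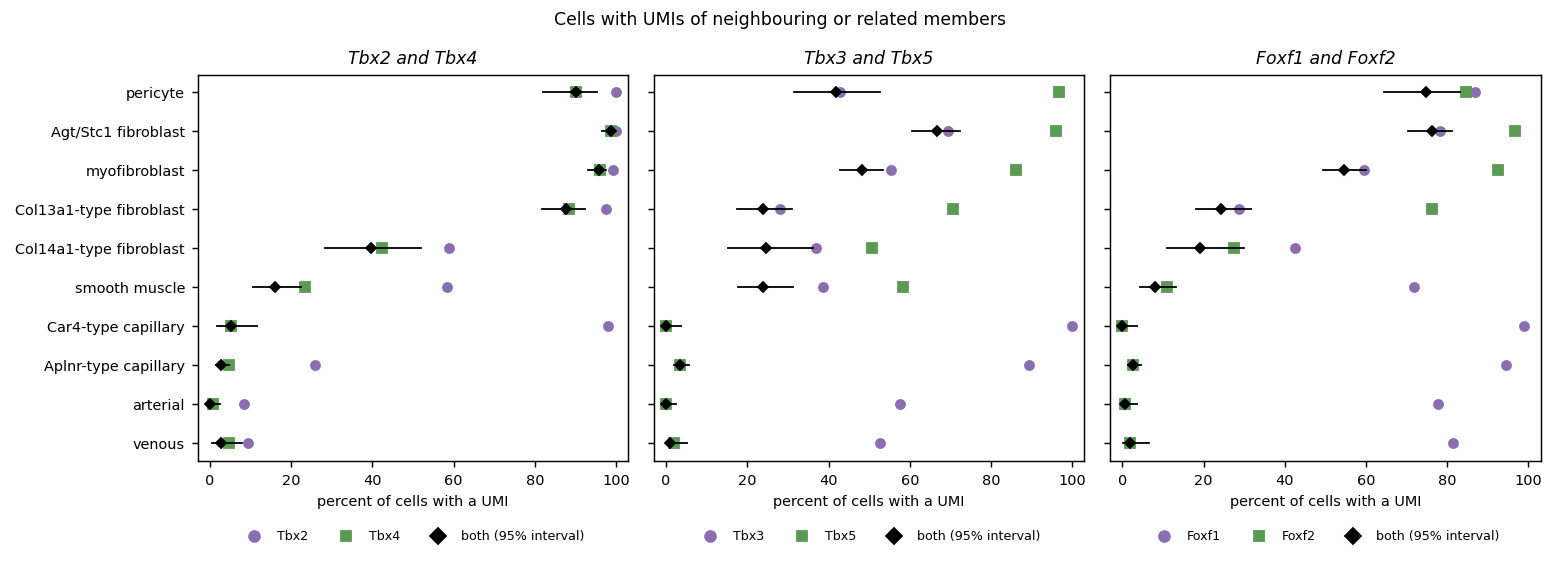
Percent of the cells of each type (horizontal axis) with a UMI of the first gene (purple circles), of the second gene (green squares), and of both (black diamonds with exact 95% binomial intervals), for 3 pairs of factors. Both genes of a pair are seen together in stromal types, up to 98.8% for *Tbx2* and *Tbx4* in *Agt*/*Stc1* fibroblasts, and in at most 5.15% of the cells of an endothelial type.

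Likeness of profiles was measured as Pearson's r of log2(CPM + 10) over 21 cell types, which share libraries and include many types near 0, so the values are a description. *Tbx4* and *Foxf2* were most like each other (r = 0.99), with *Ism1* next for both (0.98). *Tbx5* was most like the predicted gene *Gm43050* (0.98) and *Tbx4* (0.97), and *Tbx2* like *Egflam* and *Chst2* (both 0.96). *Tbx3* was most like *Fendrr* (0.99) and *Foxf1* (0.98), and *Foxf1* like *Fendrr* (0.99) and *Il17rd* (0.98). For *Tcf21* these genes were *Sdk2* (0.99) and *Vstm4* (0.95), and for *Meox2* *Dpep1* and *6030408B16Rik* (both 0.97). Among the 8 factors themselves, *Tcf21* and *Meox2* had r = 0.93, whereas the genome neighbors had 0.87 (*Tbx2* and *Tbx4*) and 0.41 (*Tbx3* and *Tbx5*) and the paralogs *Foxf1* and *Foxf2* had 0.44.

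Other genes of the same families and pathways were divided between the compartments (edgeR, stromal cells against EC), and their counts are read against the 31.2% of all genes called higher and the 24.6% called lower there. Of 13 further T-box genes 6 were tested. *Tbx18*, known from the mesothelium and mural cells, was higher (log2 fold change 5.07 ± 0.69, SE), and *Mga* was slightly higher (0.23 ± 0.08). *Tbx1* was lower, with a wide SE (−5.84 ± 1.27). Of 23 further forkhead genes tested, 9 were higher, among them *Foxp2* (4.83 ± 0.25), *Foxs1* (4.74 ± 0.36), and *Foxl1* (4.18 ± 0.70). Another 4 were lower, among them *Foxp1* (−1.60 ± 0.09), *Foxo1* (−1.55 ± 0.08), and *Foxk1* (−0.44 ± 0.13). Of 21 other mesenchymal factors 16 were higher and 5 lower, with a median of 2.74. The hedgehog effector *Gli2* (6.97 ± 0.57), *Msc* (6.64 ± 1.05), and *Osr1* (6.40 ± 0.30) led, in an order that lies within these SEs. *Tcf15* (−3.88 ± 0.43), *Meox1* (−2.17 ± 0.21), a relative of *Meox2*, and *Tcf4* (−0.83 ± 0.09) were lower. Of 16 genes placed up- or downstream of the factors, 6 were higher, led by the hedgehog inhibitor *Hhip* (7.46), the growth factor *Fgf10* (4.15), and *Wnt2* (3.54), and 7 were lower, led by the endothelial receptors *Tie1* (−7.38), *Kdr* (−6.85), and *Tek* (−6.13). Of this last list 14 genes were tested between stromal types. *Col13a1*-type fibroblasts had 9 higher and 3 lower (18.8% and 12.3% of all genes), *Col14a1*-type fibroblasts 8 and 3 (17.2% and 8.88%), myofibroblasts 7 and 1 (13.4% and 9.53%), pericytes 7 and 2 (15.4% and 14.2%), *Agt*/*Stc1* fibroblasts 5 and 1 (12.7% and 9.53%), and smooth muscle cells 1 and 6 (21.2% and 15.7%).

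Among the stromal clusters without a name were 2 of the usual depth. In a cluster of 196 cells led by *Hhip* and *Aspn*, the myofibroblast list scored highest (2.84), but a second list (2.51) was too close to choose. The named myofibroblasts scored 2.76 on that list. This unnamed cluster had 562, 558, and 478 CPM of *Tbx2*, 344, 353, and 347 CPM of *Tbx4*, and 129.98, 141, and 156 CPM of *Tbx3*. Its mean *Tbx3* level of 142 CPM was above, and its mean *Tcf21* level of 3.24 CPM below, that of each of the 6 tested stromal types. A cluster of 127 cells led by *Notch3* and *Parm1* had 263 CPM of *Tbx5*, 254 CPM of *Tbx2*, and 101 CPM of *Tcf21* (means of 3 mice). Neither entered the tests between stromal types.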

How the data were processed

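The authors ran each library through Cell Ranger 3.0.2 (mm10, per the submitters' processing notes) and deposited the UMI counts as counted, without normalization, for the droplets kept as cells, each with 500 or more UMIs. The annotation of the counting is not given in the sources used here. Libraries were merged, normalized with SCTransform (sctransform 0.4.2, Seurat 5.3.0, R 4.3.3), and clustered on 30 principal components (resolution 0.8), without the 8 factors and the list genes among the 3000 variable genes. Stromal cells and EC were clustered again on 20 components. Names came from marker lists. Doublets were scored with scanpy 1.11.5, whose automatic threshold marked 49 of 7642 cells (0.641%), so 0.8% per 1000 cells, those scoring highest, were marked instead.

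Counts were summed per mouse and type (at least 10 cells) and tested in edgeR 4.0.16 by its quasi-likelihood test with TMM scaling and filterByExpr, with Benjamini-Hochberg adjustment over all genes tested and a threshold of 0.05. The sums of a mouse are paired, as 1 animal gave them all, and the deviations of paired sums from the type means correlated with r from −0.0628 to 0.208, and a model with a term for the animal was fitted as an alternative. In a test on simulated data, 200 genes had a log2 change of 2. Of these, edgeR recovered 86.5% (stromal cells against EC, 14211 genes), 91% (smooth muscle, 10430 genes), and 97% (venous cells, 7788 genes). It called 0.0357%, 0.1075%, and 0.1318% of the unchanged genes. The simulated sums were independent and otherwise shared 1 mean for all types. Real types differ in many more genes, so these rates do not carry over to the real contrasts. Shares carry exact 95% binomial and sums exact Poisson intervals (scipy 1.17.1), for counting error only.

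The genes named are the 8 factors, the 2 genes most like each one (with at least 200 UMIs), and up to 3 genes per list and direction in stromal cells against EC, by size. *Fendrr* was also described as a neighbor of *Foxf1*. Members and lists were chosen with earlier results of these data known. The alternatives were other filters on cells, doublets removed, log-normalization, resolutions of 0.4 and 1.2, the factors among the variable genes, classes assigned from marker UMIs cell by cell, DESeq2 1.42.0, library totals in place of TMM, all genes kept whatever their counts, and each mouse left out. Leaving out the 10-cell sub-cluster was added after seeing the data.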

Additional observations from a re-analysis of the deposited data

Results flagged for a closer look

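UMIs of the 8 factors were also counted in data that no comparison used. The 2002 droplets outside the cell filter held 137 UMIs of *Tbx2*, 109 of *Foxf1*, 88 of *Tbx3*, 59 of *Tbx4*, 46 of *Tbx5*, 34 of *Foxf2*, 17 of *Tcf21*, and 7 of *Meox2*, which is 0.583% (*Tcf21*) to 1.42% (*Tbx3*) of all UMIs of the gene. Clusters that took no class name held 308 UMIs of *Foxf1*, 274 of *Tbx3*, 127 of *Tbx2*, 51 of *Tbx4*, 47 of *Tbx5*, 31 of *Foxf2*, 7 of *Tcf21*, and 5 of *Meox2*. Of these, 289 *Foxf1* and 230 *Tbx3* UMIs were found in 505 cells that clustered together at a median depth of 864 UMIs, where the 6 endothelial markers summed to 3052 CPM over the mice, and 90 *Tbx2* UMIs in 157 cells whose median depth was 771 UMIs.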

How the results depend on the processing

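The 8 factors gave 40 calls in 40 tests between classes, where 7926 to 10842 of 14211 genes were called per contrast. Between stromal types they gave 44 in 48 (2317 to 3847 of 10430 genes per contrast). Between endothelial types they gave 11 in 12 (1339 to 2042 of 7788 genes per contrast). The tests of a factor within a compartment are not independent, because its fold changes over the types cancel out. With each mouse left out in turn the counts for the 8 factors were 40 to 40, 42 to 43, and 10 to 13. Of 14221 to 14350 genes, 6552 to 10090 were then called per class contrast. Per stromal contrast it was 1583 to 3231 of 10153 to 10552 genes, and per endothelial contrast 867 to 1742 of 7876 to 8045. The value of 13 came without mouse 2, where 16 endothelial tests were made because 4 factors passed the filter on low counts. With the mouse as a replicate block they were 40, 44, and 11, and the block changed no call. With no filter on low counts, 20 of 32 endothelial tests passed (6 in *Aplnr*-type, 5 in arterial, and 5 in venous cells). Over all genes, 1692 to 2309 of 16102 were then called per endothelial contrast. Without the 10-cell sub-cluster, 5 factors were called in EC against epithelial cells and 5 against immune cells. Of all 14201 genes, 9368 and 9693 were called there. Of 100 fold changes, 18 lost their call or changed sign in at least 1 of 16 settings, and none that changed sign passed the threshold. *Tbx2* in *Aplnr*-type cells was −0.25 with doublets removed, −0.35 with log-normalization, −0.39 at resolution 0.4, −0.31 with the factors among the variable genes, and −0.40 without the sub-cluster, where *Tbx5* in EC against epithelial cells was −0.13. *Foxf1* in smooth muscle was 0.28 with doublets removed, 0.24 with log-normalization, 0.0083 and 0.25 at resolutions of 0.4 and 1.2, 0.19 with the factors among the variable genes, 0.0011 with DESeq2, 0.010 with no filter on low counts, and −0.0986 to 0.21 with a mouse left out (0.21 without mouse 3). With a mouse left out, *Foxf1* in myofibroblasts was −0.19 to 0.062 (0.062 without mouse 4), and *Meox2* in pericytes was −0.54 to 0.64 (−0.54 without mouse 2). The cause was not tested. Over all genes, *Aplnr*-type calls were 1339, and 867 without mouse 3 (613 and 330 of them lower). Lower calls also went from 994 to 588 without mouse 2 and 605 without mouse 4 in myofibroblasts, from 994 to 640 without mouse 4 in *Agt*/*Stc1* fibroblasts, from 926 to 602 without mouse 2 and 582 without mouse 3 in *Col14a1*-type fibroblasts, and without mouse 2 from 1482 to 950 in pericytes and from 729 to 468 in venous cells. With no filter on low counts, higher calls in *Aplnr*-type cells went from 726 to 1098. No TMM moved the share of higher calls from 53.3% to 71.5% (stromal against epithelial), 50.8% to 70.7% (EC against epithelial), and 49.0% to 60.3% (EC against immune), and the median of all genes by 0.37, 0.48, and 0.22 on the log2 scale (0.14 in stromal against immune cells). It took higher calls from 4780 to 7524 (EC against epithelial) and from 1323 to 2312 (*Agt*/*Stc1* fibroblasts) and lower calls from 926 to 1641 (*Col14a1*-type fibroblasts). It turned the balance to more lower than higher calls in stromal cells against EC (55.9% to 47.8% higher), smooth muscle (57.5% to 48.1%), *Col14a1*-type fibroblasts (65.9% to 47.5%), arterial cells (53.4% to 46.4%), and venous cells (56.9% to 47.1%). DESeq2 moved that share from 57.1% to 46.1% in *Agt*/*Stc1* fibroblasts. In 4 settings (the stricter cell filter, doublets removed, resolution 0.4, and the factors among the variable genes) *Col14a1*-type fibroblasts had no contrast, since 70 to 73 of these cells fell into a cluster named chondrocyte, which then entered the other stromal types. *Meox2* had the fewest UMIs of the 8 factors (958 in kept cells), and the part of depth in these changes was not tested.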

Other observations

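The 136 cells of the dividing cluster had 69 *Tcf21* UMIs, all of them in mouse 3 (93.4 CPM, against 0 in mice 2 and 4). Among the stromal and endothelial clusters without a name, 3 were of low depth. A stromal one of 57 cells (median depth 855 UMIs) had 650.5, 1525, and 533 CPM of *Tcf21* and 325, 572, and 249.9 CPM of *Meox2*. Another of 44 cells (783 UMIs), led by *Rgs5* and *Higd1b*, had 2014, 1006, and 1773 CPM of *Tbx2*. An endothelial one of 75 cells (865 UMIs) had 839, 304, and 1075 CPM of *Tbx2* and 667, 803, and 1075 CPM of *Tbx3*.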
